A study of Mus musculus with 4 samples.

Results

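The comparison of a high-fat with a normal diet in mice that all received a pool of plant miRNAs was examined in liver, with 84 genes of adipogenesis and lipid metabolism measured by PCR array in 2 of the 4 deposited samples. Both samples came from C57BL/6J male mice that were aged 2 months when the groups were formed. They were given a pool of miRNAs purified from seeds of the tree *Moringa oleifera* (the *mol*-miR pool). It was given by gavage every 2 days during 5 weeks of diet. The sample in the column LFDPool is labelled as normal diet (ND) + *mol*-miR pool, a diet of 3.85 kcal/g in which carbohydrate gave 70% of the kcal, protein 20% and fat 10%. The sample in the column HFDPool is labelled as high-fat diet (HFD) + *mol*-miR pool, a diet of 5.24 kcal/g in which fat gave 60% of the kcal and carbohydrate and protein 20% each. The columns LFD and HFD hold a sample of each diet without the pool. The diet names may be exchanged between the 2 tables that the authors deposited, which was not settled here, so the samples are named below by the column labels of the Ct table, and a direction holds for those columns as labelled. There were 3 mice per group, and the sources used here do not state whether a sample is 1 liver or several combined. Each group was 1 sample and each gene 1 well of it, so no difference between diets could be set against a spread between replicates, no test was possible and no p-value is given.

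The liver makes fatty acids from sugar and exports or stores them as triglycerides, and the transcription factor Srebf1 and the oxysterol receptor Nr1h3 (LXR alpha) drive the genes of that synthesis. Adipogenesis is the formation of fat cells from precursors. It is held back by Wnt signalling and by factors such as Dlk1, Gata2 and Gata3, and it is driven by Pparg and the C/EBP family. Many of its regulators, and the adipokines that fat cells secrete, are known from adipose tissue, so that an adipogenesis array on liver reads abundant hepatic transcripts together with transcripts that hepatocytes make sparingly.

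Abundance was read as a threshold cycle (Ct), the PCR cycle in which product is first detected, and an earlier Ct stands for more template. Each Ct was set against the mean of Actb, Gapdh, Gusb, Hprt and Hsp90ab1, the reference genes, in its sample, which was 22.1 cycles in LFDPool and 22.2 in HFDPool. Among these references Gapdh moved most to later cycles, from 20.4 in LFDPool to 21.3 in HFDPool, and Hsp90ab1 most to earlier ones, from 18.3 to 17.7. The genomic DNA control (MGDC), a well whose primers amplify an untranscribed stretch of the genome, was detected at cycle 28.8 in LFDPool and 33.4 in HFDPool, a difference of 4.57 cycles. Read as an amount of template, it stood for more DNA in LFDPool. On the scale of the gene values the log2 difference of the MGDC was -4.48. Its distance to the genes is given below, by gene or by list, because a gene whose Ct lies close to that of the MGDC can hold a sizeable share of signal from DNA. The 3 positive PCR control (PPC) wells of LFDPool had a mean Ct of 18.4 ± 0.0565 (SD, n = 3 wells), whereas in HFDPool 1 PPC well had a Ct of 22.0 and the other wells had none. Of the 3 reverse transcription control wells, 2 had a Ct in LFDPool (28.6 and 29.4) and 0 had one in HFDPool. The PPC, too, came later in HFDPool, by 3.66 cycles in the 1 well with a Ct in both samples. Whether the later MGDC there reflects less DNA or the reaction itself was not tested. The part of these control differences in the gene values was not tested either.

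In HFDPool relative to LFDPool, 20 of the 84 genes lay above a fold of 1.5 (23.8%), 29 lay below 0.5 (34.5%) and 35 lay between those limits, which are the ones named in the study's methods. Since the diet names may be exchanged, the ratio was also turned, after the values had been seen: in LFDPool relative to HFDPool, 34 genes lay above 1.5 (40.5%) and 8 below 0.5 (9.52%), because the limits are not symmetric. The median log2 fold change was -0.22, with 37 genes higher and 47 lower in HFDPool. The 10 highest values belonged to Srebf1, Taz, Sirt3, Acacb, Klf15, Irs2, Mapk14, Ppargc1a, Hes1 and Fasn, most of them genes with a Ct under 26 in LFDPool. The 10 lowest belonged to Shh, Dkk1, Fgf10, Wnt10b, Wnt1, Retn, Lep, Egr2, Klf2 and Sfrp5, of which Egr2 alone had a Ct under 26 in LFDPool. Array genes had a Ct from 20.0 to 29.6 in LFDPool and from 19.8 to 31.7 in HFDPool. No gene had a Ct above 30 in LFDPool and 11 did in HFDPool, where Shh had no Ct. Close to the limits, Nr0b2 (1.55-fold) was counted as above, while Irs1 (0.422-fold) was counted as below and Fgf2 (0.502-fold) was not.

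**Figure D1:**
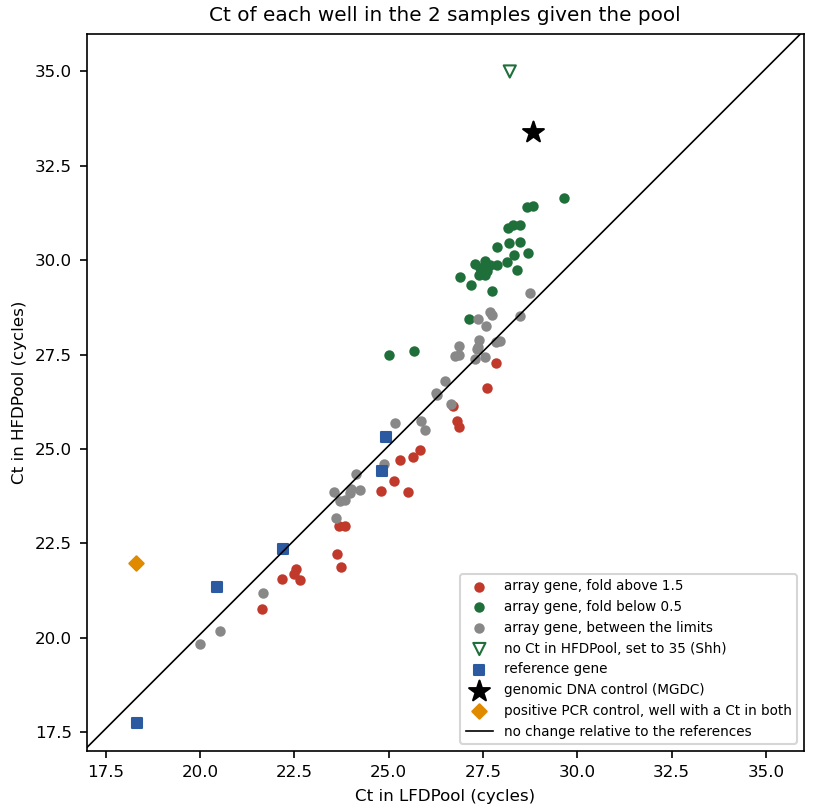
Ct of each well in LFDPool (x axis, cycles) and HFDPool (y axis, cycles), 1 point per array gene, reference gene or control well, with genes coloured by the fold limits and a line for no change relative to the references. Genes with a fold above 1.5 lie under the line at Ct values below 28 in LFDPool, genes with a fold below 0.5 lie above it mostly at Ct values over 27 in LFDPool, and the MGDC star at 28.8 and 33.4 lies further above the line than any array gene that had a Ct in both samples.

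The lipogenesis list, like the other lists, was drawn up with earlier results of these data known. All 4 genes placed in it had a fold above 1.5, as did 23.8% of the array. Their median log2 fold change was 1.18 against -0.22 for the array. Srebf1, the transcription factor of fatty acid synthesis, had a Ct of 23.7 in LFDPool and 21.9 in HFDPool, the highest fold change of the array (3.82-fold, log2 1.93). Acacb, the acetyl-CoA carboxylase that makes malonyl-CoA at mitochondria, went from 26.9 to 25.6 (log2 1.38). Fasn, the fatty acid synthase, went from 23.8 to 22.9 (log2 0.98) and Nr1h3 from 21.6 to 20.8 (log2 0.95). Each of the 4 genes was thus more abundant in HFDPool. Srebf1, Fasn and Nr1h3 preceded the MGDC by 4.98 cycles or more in LFDPool and Acacb by 1.95, and in HFDPool each preceded it by at least 7.81 cycles. With single reference genes or the other settings tried, Srebf1 stayed between 1.26 and 2.75, Acacb between 0.70 and 2.19, Fasn between 0.30 and 1.79 and Nr1h3 between 0.28 and 1.77, each above 0.

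Since these 4 genes lay on the same side, their promoters were read, as background to a known regulation and not as a site seen in these data. In the 250 bases before each start that RefSeq places on the mouse genome (GRCm38.p6), 2 motifs were searched on both strands, TCACCC (a stretch of the sterol regulatory element of the LDL receptor promoter) and CCAAT (the box that NF-Y binds). Of 32851 promoter windows, 13.8% held TCACCC, 33.8% held CCAAT and 4.26% held both. The windows with both among the 4 genes were that of Fasn (chr11:120824548-120824797, minus strand) and 1 of the 3 of Srebf1 (chr11:60210472-60210721, minus strand). They are printed 5′ to 3′ in lower case with the motifs in capitals, where ATTGG is CCAAT on the other strand and CCAATTGG is a pair of CCAAT boxes that overlap.
Fasn: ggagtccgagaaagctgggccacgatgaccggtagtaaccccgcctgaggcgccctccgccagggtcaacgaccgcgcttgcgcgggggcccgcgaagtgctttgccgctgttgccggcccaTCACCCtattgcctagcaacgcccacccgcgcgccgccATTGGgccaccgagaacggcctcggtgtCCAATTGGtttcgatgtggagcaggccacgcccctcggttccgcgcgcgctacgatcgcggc
Srebf1: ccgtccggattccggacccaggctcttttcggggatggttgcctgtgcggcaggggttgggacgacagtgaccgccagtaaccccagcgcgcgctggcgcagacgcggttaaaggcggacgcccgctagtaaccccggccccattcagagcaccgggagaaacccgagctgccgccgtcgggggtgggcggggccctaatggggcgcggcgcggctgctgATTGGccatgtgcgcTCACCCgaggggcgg
The Acacb window held 1 CCAAT and no TCACCC, and each of the 2 windows of Nr1h3 held 1 TCACCC and no CCAAT. Fasn and Srebf1, whose windows are shown, had log2 fold changes of 0.98 and 1.93, and the genes without such a window had 1.38 (Acacb) and 0.95 (Nr1h3).

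Genes of fat uptake and storage lay near the middle of the array. Lpl, the lipase that frees fatty acids from circulating lipoproteins, had log2 0.23, Fabp4, a fatty acid carrier of adipocytes, -0.13, and Lipe, the hormone-sensitive lipase, -0.42, all between the limits. Adig (adipogenin), which goes with lipid droplets in fat cells, had a Ct of 27.6 in LFDPool and 29.6 in HFDPool (log2 -1.96). It preceded the MGDC by 1.26 cycles in LFDPool. In insulin signalling, the insulin receptor substrates Irs1 and Irs2 lay on opposite sides of the limits. Irs2 went from a Ct of 26.8 to 25.7 (log2 1.16), and Irs1 from 27.1 to 28.5 (log2 -1.25). They preceded the MGDC by 2.00 and 1.69 cycles in LFDPool. The insulin receptor Insr (log2 -0.23), the glucose transporter Slc2a4 (-0.80) and Foxo1 (0.36), a transcription factor that insulin switches off, lay between the limits.

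Of 5 adipokines and secreted factors, Cfd was above the limit, 3 were below and Agt lay between. Cfd, the complement protease adipsin, had a Ct of 22.5 in LFDPool and 21.8 in HFDPool (1.75-fold, log2 0.81) and preceded the MGDC by 6.28 and 11.6 cycles. Leptin (Lep), the satiety hormone of fat cells, went from 27.3 to 29.9 (log2 -2.53), resistin (Retn) from 28.8 to 31.4 (log2 -2.54) and adiponectin (Adipoq) from 28.1 to 29.96 (log2 -1.73). The 3 hormones thus came later in HFDPool, and in LFDPool they preceded the MGDC by 1.53 cycles or less, Retn by 0.002 cycles. Agt, the angiotensinogen that hepatocytes secrete, had a Ct of 24.005 and 23.9 (log2 0.14).

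Among the 8 genes placed in the list of nuclear receptors and coregulators, 1 was above 1.5, 1 below 0.5 and 6 lay between, with a median of 0.39. The receptor Nr1h3 (log2 0.95) and the coactivators Ppargc1a (1.08) and Ppargc1b (0.94), also above 1.5, were counted in other lists. Nr0b2 (SHP), the receptor that represses bile acid synthesis, had a Ct of 26.7 in LFDPool and 26.2 in HFDPool (log2 0.63), and Vdr, the vitamin D receptor, 28.7 and 30.2 (log2 -1.44), where it preceded the MGDC by 0.138 cycles in LFDPool. Ppara, the fatty acid sensor that drives hepatic fatty acid oxidation, had 23.8 and 23.6 (log2 0.27). Ppard had log2 0.18 and Pparg 0.51, so no member of the Ppar family passed a limit. The coactivator Ncoa2 (0.54) and the shared partner Rxra (-0.08) did not pass one either.

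Of the 10 thermogenic and mitochondrial genes, 3 were above 1.5 and 4 below 0.5, and 9 lay under 3 cycles before the MGDC, or after it, in LFDPool. The coactivators of mitochondrial biogenesis Ppargc1a and Ppargc1b had Ct values of 25.2 and 25.8 in LFDPool and 24.2 and 25.0 in HFDPool (log2 1.08 and 0.94), and the stress kinase Mapk14 (p38 alpha), 1.20 cycles before the MGDC in LFDPool, went from 27.6 to 26.6 (log2 1.10). The 4 genes below 0.5 are known from brown fat and preceded the MGDC by at most 1.64 cycles in LFDPool. Ucp1, which uncouples respiration to make heat, went from 28.2 to 30.5 (log2 -2.19), the thyroid hormone deiodinase Dio2 from 27.4 to 29.6 (-2.11), and the transcription factors Foxc2 from 27.2 to 29.4 (-2.10) and Prdm16 from 29.6 to 31.7 (-1.94). Prdm16 was the one array gene detected later than the MGDC in LFDPool, at a distance of -0.819 cycles. The mitochondrial deacetylase Sirt3 went from 23.6 to 22.2, a log2 fold change of 1.52, and Sirt2 (0.43) and Sirt1 (0.21) lay between the limits.

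In the C/EBP family Cebpb, Cebpa and Ddit3 lay between -0.24 and 0.26. Cebpd, an early factor of fat cell formation, went from a Ct of 27.4 to 29.8 (log2 -2.29), and it was the one gene of the family under 3 cycles before the MGDC in LFDPool (1.39 cycles). Of 6 cell cycle genes, cyclin D1 (Ccnd1) was above the limit with 25.3 and 24.7 (log2 0.68) and the retinoblastoma gene Rb1 below with 27.7 and 29.2 (log2 -1.35), and the other 4 lay between. They preceded the MGDC in LFDPool by 3.53 and 1.08 cycles. Klf15, a factor of amino acid and glucose metabolism in liver, went from 22.6 to 21.5 (log2 1.20), and the glucocorticoid target Tsc22d3 from 22.5 to 21.7 (log2 0.91). Klf3 (0.54) lay between the limits. Klf2, a factor that holds back fat cell formation, went from 27.9 to 30.3 (log2 -2.38), and Klf4 from 25.7 to 27.6 (log2 -1.84). Klf2 preceded the MGDC by 0.942 cycles in LFDPool and Klf4 by 3.15, while Klf15 and Tsc22d3 preceded it by over 6 cycles.

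The Wnt genes of the array lay close to the MGDC in LFDPool, with 4 of 5 ligands and 5 of 6 antagonists and transducers under 3 cycles before it. Of the 5 ligands, Wnt10b, Wnt1 and Wnt3a were below 0.5, Wnt5a lay between and Wnt5b was above 1.5. Their share below 0.5 was 60.0%, against 34.5% of the array, and their median was -2.09. Wnt10b, the ligand best known for holding back adipogenesis, went from 26.9 to 29.6 (log2 -2.60), Wnt1 from 28.3 to 30.9 (log2 -2.57) and Wnt3a from 27.7 to 29.9 (log2 -2.09). These 3 preceded the MGDC in LFDPool by 1.93, 0.527 and 1.13 cycles. The non-canonical ligands differed from each other in sign, with Wnt5a at 27.7 and 28.6 (log2 -0.85) and Wnt5b at 25.6 and 24.8 (log2 0.95). Wnt5a preceded the MGDC in LFDPool by 1.12 cycles and Wnt5b by 3.18. Among 6 antagonists and transducers, the secreted antagonists Dkk1 (-2.67), Sfrp5 (-2.37) and Sfrp1 (-1.74) and the scaffold Axin1 (-2.20) were below the limit, a share of 66.7%. In LFDPool they preceded the MGDC by 0.151, 0.338, 0.495 and 1.29 cycles. The coreceptor Lrp5 lay between with 28.8 and 29.1 (log2 -0.30), and Tcf7l2, the transcription factor at the end of the pathway, was above with 23.7 and 23.0 (log2 0.81).

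Growth factors of the BMP and FGF families lay on both sides. Fgf1 went from 22.2 to 21.6 (log2 0.71) and Bmp7 from 27.9 to 27.3 (log2 0.65), whereas Fgf10 went from 28.2 to 30.9 (log2 -2.61) and Bmp2 from 27.9 to 29.9 (log2 -1.91). Bmp4 (0.20), Angpt2 (-0.23) and Fgf2 (-0.99) lay between. All of these but Fgf1 were under 3 cycles before the MGDC in LFDPool, with Fgf10 at 0.652, Bmp2 at 0.938 and Bmp7 at 0.965 cycles. Of 7 regulators of the preadipocyte state, 5 were below 0.5 (71.4%, against 34.5% of the array), 6 lay under 3 cycles before the MGDC in LFDPool, and the Notch target Hes1 was above 1.5 with 24.8 and 23.9 (log2 0.99). Gata2 went from 27.6 to 29.7 (log2 -2.03), Gata3 from 28.4 to 29.7 (-1.26), Dlk1, a membrane protein of preadipocytes, from 28.5 to 30.5 (-1.91) and the repressor Runx1t1 from 27.5 to 29.97 (-2.35). Their distances to the MGDC in LFDPool were 1.22, 0.418, 0.333 and 1.27 cycles. Sonic hedgehog (Shh) had a Ct of 28.2 in LFDPool, 0.608 cycles before the MGDC, and none in HFDPool. Its value of -6.71 follows from setting the missing Ct to 35 and is set by that choice. Twist1 (-0.53) lay between. Among the remaining genes, Taz had a Ct of 25.5 in LFDPool and 23.9 in HFDPool (log2 1.73). That symbol is the RefSeq symbol of one gene (tafazzin in the annotation used) and an older name of Wwtr1, and the deposited table does not say which was meant. Egr2, an early growth response factor, went from 25.0 to 27.5 (log2 -2.40), and Lmna, Src and Jun lay between -0.13 and 0.41.

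**Figure D2:**
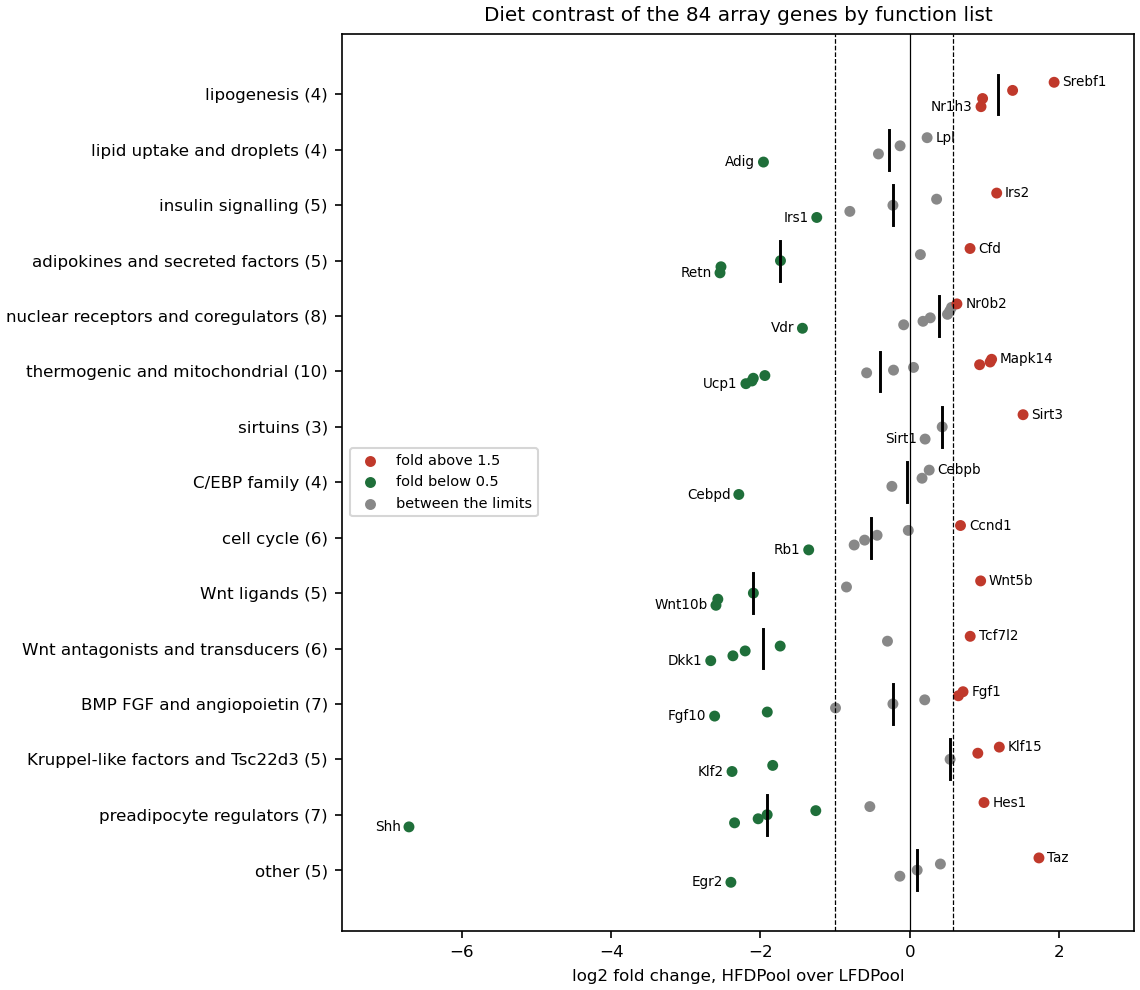
Log2 fold change of HFDPool over LFDPool (x axis) for the 84 genes, 1 point per gene, in rows by function with the number of genes in brackets, black bars for the median of each row and dashed lines at folds of 0.5 and 1.5. The 4 lipogenesis genes all lie above the upper line, most Wnt and preadipocyte genes lie between -1.26 and -2.67, and Shh, without a Ct in HFDPool, lies at -6.71.

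The values followed the distance of each gene to the MGDC, which within a sample orders the genes as their Ct does. In LFDPool 55 of the 84 genes had a Ct under 3 cycles before that of the MGDC or after it, and the median distance was 1.94 cycles. In HFDPool 8 genes did, with Shh lacking a Ct, and the median distance was 5.94 cycles. Among the 55 genes close to the MGDC in LFDPool, 6 were above 1.5 and 27 below 0.5, with a median log2 fold change of -0.99. Among the other 29 genes, 14 were above and 2 below, with a median of 0.56. By distance in LFDPool, the median was -1.91 for the 20 genes within 1 cycle of the MGDC, -0.92 for the 26 at 1 to 2 cycles, 0.20 for the 9 at 2 to 3, 0.36 for the 15 at 3 to 5 and 0.76 for the 14 at 5 to 9 cycles. Almost all low values therefore came from genes that were near the DNA control in LFDPool. The 2 exceptions were Klf4 and Egr2, at 3.15 and 3.802 cycles before the MGDC in LFDPool and 5.80 and 5.89 in HFDPool. Across the 84 genes the fold change and the distance in LFDPool had a Pearson r of 0.585 (0.610 without Shh). Both measures hold the LFDPool Ct, and genes of 1 plate are not independent replicates. Since the MGDC has 1 Ct in a sample, nearness to it cannot be told apart here from low abundance of the gene. With the distance in the LFD sample, whose Ct values are not in the contrast, r was 0.524. That distance too orders genes as their Ct does.

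**Figure D3:**
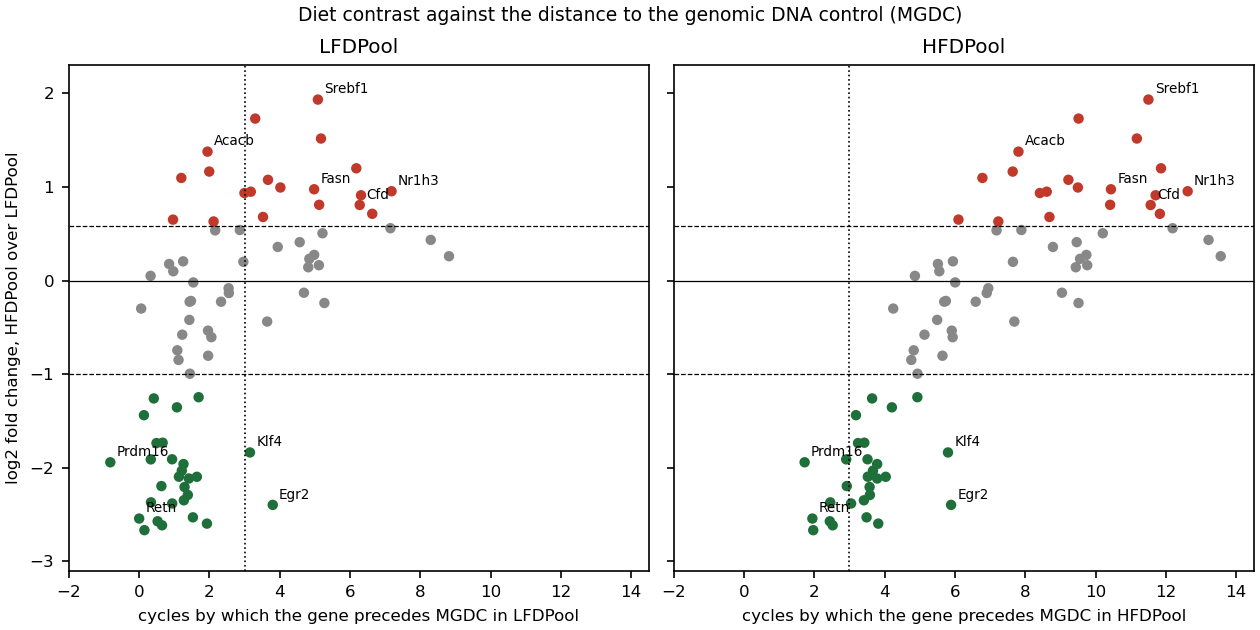
Log2 fold change of HFDPool over LFDPool (y axis) against the number of cycles by which a gene precedes the MGDC in LFDPool (left) and in HFDPool (right), 1 point per gene, with colours for the fold limits, dashed lines at the limits and a dotted line at 3 cycles; Shh, at -6.71, lies outside the plotted range. Low values gather left of the dotted line in LFDPool except Klf4 and Egr2, and most of them lie at 2 to 4 cycles in HFDPool.

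When an amount of template equal to that of the MGDC was subtracted from each gene in each sample, all of the 20 genes above 1.5 stayed above. Of the 29 genes below 0.5, 16 stayed below, among them Lep, Klf2, Gata2, Wnt10b, Wnt1, Wnt3a, Klf4, Egr2 and Cebpd. A further 9 moved between the limits, Retn and Vdr moved above 1.5, and Shh and Prdm16 gave no value. The median of the Wnt antagonists and transducers went from -1.97 to 0.02, that of the preadipocyte regulators from -1.91 to -0.03 (without Shh, which gave no value) and that of the adipokines and secreted factors from -1.73 to 0.15. Lrp5 (4.22) counted as a high value in the 1st of these medians and Retn (6.48) in the last. They preceded the MGDC in LFDPool by 0.059 and 0.002 cycles. Little of their template was left there after subtraction, so these values and medians are not firm. Dkk1 (0.20), Sfrp1 (-0.15) and Sfrp5 (-0.44) then lay between the limits. The Wnt ligands had a median of -1.20, with Wnt10b at -2.30, and the lipogenesis genes of 1.37. The MGDC gives 1 amplicon, and whether each gene's primers amplify DNA to the same degree was not tested. Whether the MGDC Ct reflects the amount of DNA alone was not tested either. No cause of the lower values could be assigned from these wells.

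The same diet contrast without the pool, HFD over LFD, lay lower for nearly the whole array. There 3 genes were above 1.5 (3.57%) and 61 below 0.5 (72.6%), with a median log2 fold change of -2.53, and 8 genes were higher in HFD. With that ratio turned, LFD over HFD, 67 genes lay above 1.5 (79.8%) and 1 below 0.5 (1.19%). The MGDC differed by 7.88 cycles in that pair, against 4.57 with the pool, and the share of that difference in the gene values was not tested. Of the 29 genes below 0.5 with the pool, 28 (96.6%) were also below without it, which is 45.9% of the 61. For 81 of the 84 genes the log2 value was higher with the pool than without it, with a median difference of 2.28. Shh, Irs1 and Agt had the opposite order. The values of the 2 contrasts had a Pearson r of 0.762 across the 84 genes and 0.874 across 82 genes without Shh and Lrp5, which each lack a Ct in 1 sample. The contrasts share no sample, but they share the plate layout, the primers and the order of the MGDC between the diets. They also share the order of the PPC, which had Ct values of 17.9 and 16.9 in LFD and a single one of 21.2 in HFD.

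The lipogenesis genes had a median of 0.23 without the pool, where Srebf1 alone was above 1.5. Srebf1 had a Ct of 22.4 in LFD and 22.0 in HFD (log2 0.75), and Taz 24.8 and 24.4 (log2 0.79). These 2 genes were above the limit in both contrasts. A further 6 genes lay on opposite sides of the limits in the 2 contrasts. Cfd had a Ct of 24.7 in LFD, 28.97 in HFD, 22.5 in LFDPool and 21.8 in HFDPool, so that its log2 value was -3.98 without the pool and 0.81 with it. Mapk14 had -2.23 without and 1.10 with the pool, Bmp7 -3.08 and 0.65, Wnt5b -1.72 and 0.95, and Nr0b2 -1.02 and 0.63. In LFD these 5 genes preceded the MGDC by 0.899 (Bmp7) to 2.11 (Cfd) cycles. Most array genes were close to it there, with a median Ct of 25.4 against 26.8 for the MGDC. Irs1 had the reverse order, with 1.04 without the pool and -1.25 with it. Its Ct was 29.4 in LFD, later than the MGDC there (a distance of -2.63 cycles), and from 27.1 to 28.7 in the other samples. Without replicates, none of these differences between contrasts could be tested.

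**Figure D4:**
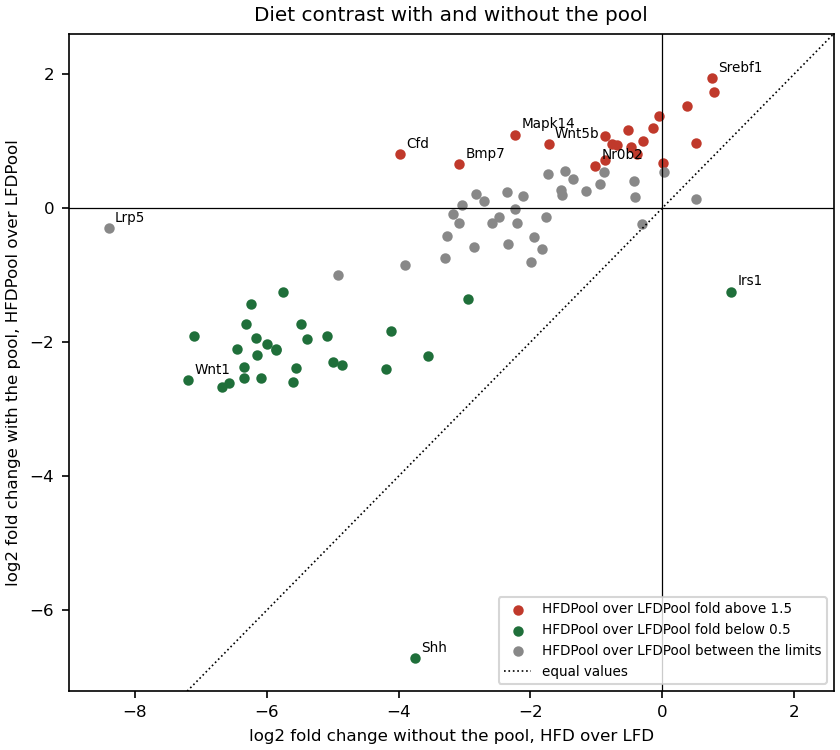
Log2 fold change of HFDPool over LFDPool (y axis) against that of HFD over LFD (x axis), 1 point per gene, coloured by the fold limits in the contrast with the pool, with a dotted line of equal values. All but 3 genes lie above the dotted line, Irs1 and Shh lie well under it, and Lrp5 at -8.39 and Shh at -6.71 each rest on a missing Ct set to 35.

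**Figure D5:**
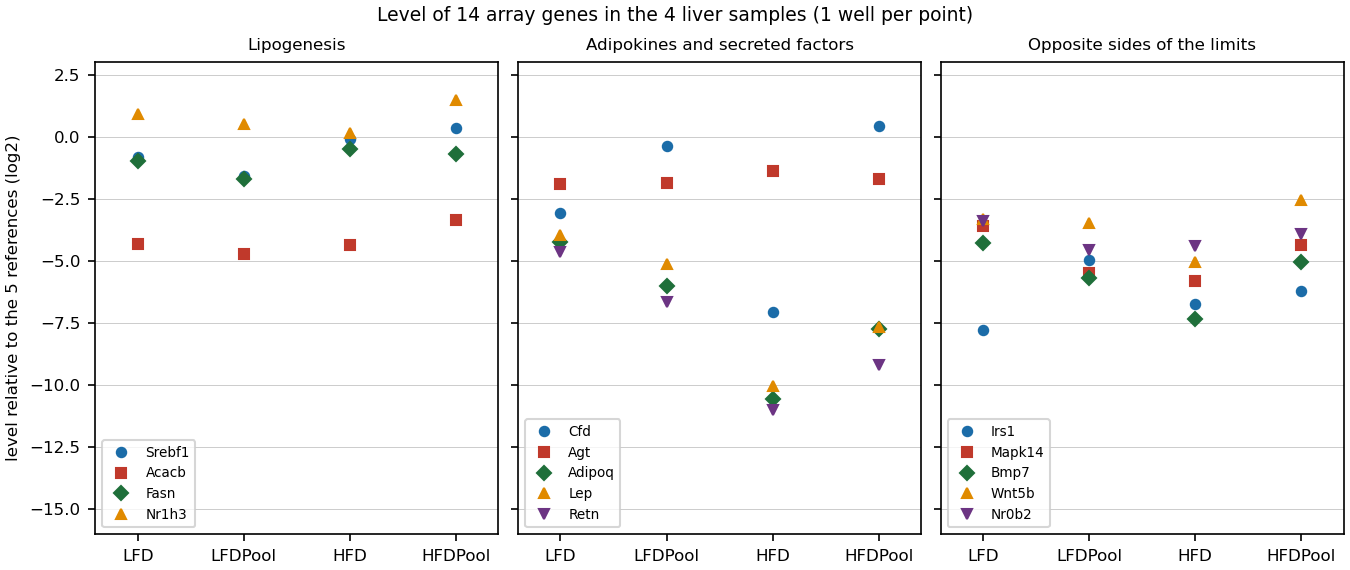
Level of 14 genes relative to the mean of the 5 references (y axis, log2, higher is more template) in LFD, LFDPool, HFD and HFDPool, 1 well per point and no error. The lipogenesis genes are higher in HFDPool than in LFDPool, Lep, Retn and Adipoq are lowest in HFD, and Cfd is higher in both samples with the pool than in either without it.

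Markers of hepatocytes and of fat cells on the array were set side by side, because a liver sample can carry other cell types, and in bulk tissue fewer cells of a type and less RNA per cell cannot be told apart. All 4 genes taken as hepatocyte markers (Agt, Nr0b2, Cebpa and Ppara) had a Ct in both samples. Their summed level relative to the references was 0.970 in LFDPool and 1.13 in HFDPool. Cebpa also belongs to the family that drives fat cell formation, so it does not separate hepatocytes from fat cells. Of 6 white adipocyte markers (Adipoq, Lep, Retn, Fabp4, Cfd and Adig), 1 was above 1.5 and 4 below 0.5, and none lacked a Ct. Their summed level was 1.09 in LFDPool and 1.58 in HFDPool, and 0.331 and 0.249 without Cfd, which made up most of it. The 3 brown adipocyte markers (Ucp1, Dio2 and Prdm16) were below 0.5, with a summed level of 0.0471 and 0.0109. All 3 brown markers and 4 of the 6 white ones lay under 3 cycles before the MGDC, or after it, in LFDPool, as did 55 of the 84 array genes. The part of other cell types in the values was not tested.

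Of the 41 array genes that the study predicted as murine targets of the *mol*-miRs, 11 were above 1.5 (26.8%) and 18 below 0.5 (43.9%), with a median log2 fold change of -0.23. Of the other 43 genes, 9 were above (20.9%) and 11 below (25.6%), with a median of -0.02. Both samples received the pool, so the contrast compares diets and not the presence of the pool. Srebf1 had the highest value among the predicted targets and Shh the lowest. In LFDPool 27 of the 41 lay under 3 cycles before the MGDC, or after it. That is about the share of the whole array, where 55 of 84 genes did.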

How the data were processed

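Total RNA of mouse livers was extracted with TRIzol and measured by the authors with a mouse adipogenesis PCR array and SYBR Green. The authors deposited a score per well, the Ct as exported, not normalized, for 96 wells and 4 samples. Their second table, with fold changes for 4 comparisons from the manufacturer's software, was not used. Columns were assigned to samples by name, low-fat diet standing for ND. No depth applies to Ct values.

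Wells without a Ct, or with one later than 35, were given 35. From each gene the mean of the 5 references was then taken off, and HFDPool minus LFDPool, sign turned, was taken as log2 fold change, assuming a doubling per cycle. Folds above 1.5 and below 0.5 were counted. For the subtraction of DNA, the template of the MGDC well was subtracted from each gene on the linear scale. With 1 sample per group, no test was made. Values of 1 array gene, which is kept in all counts, are not reported here. The 84 genes were placed in 15 lists by function. Members and lists were chosen with earlier results of these data known. The genes named are the 10 highest and 10 lowest values, genes without a Ct, those the study names for mouse livers, extremes of each list, list members, and genes on opposite sides of the limits with and without the pool. Alternatives were single references, the median Ct, other Ct and fold limits, other amplification, detection and MGDC filters, subtraction of DNA and, chosen after seeing the data, the turned ratio.

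Gene symbols (84 of 84 found) and promoters came from RefSeq, GRCm38.p6, used for names and sequences because no build applies to Ct values. The 2 motifs were chosen with the values known. Scripts were tested on simulated data and run in Python 3.11.15 with numpy 2.4.6, pandas 2.3.3 and matplotlib 3.10.9.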

Additional observations from a re-analysis of the deposited data

Results flagged for a closer look

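For 6 genes the diet contrast lay on one side of the fold limits with the pool and on the other side without it. The differences were not tested, since each contrast has 1 sample a side. Cfd had a log2 fold change of 0.81 with the pool and -3.98 without it, a difference of 4.79. Bmp7 had 0.65 and -3.08 (difference 3.73), Mapk14 1.10 and -2.23 (3.33), Wnt5b 0.95 and -1.72 (2.67) and Nr0b2 0.63 and -1.02 (1.65). Irs1 was the one gene with the opposite order, with -1.25 and 1.04 (difference -2.29). In the LFD sample all 6 genes lay close to the MGDC, with distances from 0.899 (Bmp7) to 2.11 cycles (Cfd) for 5 of them and -2.63 for Irs1, which came later than it. Most array genes lay close to the MGDC in LFD, where their median Ct was 25.4 and that of the MGDC 26.8. For comparison, the median difference between the contrasts over the 84 genes was 2.28.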

How the results depend on the processing

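No paired analysis was possible because there was 1 sample per group. The counts of 20 genes above 1.5 and 29 below 0.5 and the median of -0.22 depended on the reference. With Gusb alone 7 genes were above 1.5 and the median was -0.72, with Hsp90ab1 alone 4 and -0.90, with Gapdh alone 44 and 0.60, and with the median Ct of the genes in place of references 36 and 0.27. With Actb alone the median was 0.066. With the ratio turned (LFDPool over HFDPool), an alternative chosen after seeing the data, 34 genes were above, 8 below and the median was 0.22. With limits of 2 and 0.5, 8 genes were above. Among genes with a Ct below 30 in both samples, 17 were below 0.5 and the median was 0.0749. Among genes at least 3 cycles before the MGDC in both samples, 2 were below and the median was 0.56, and among those at least 5 cycles before it, 8 were above, 0 below and the median was 0.76. With the DNA template subtracted, 16 genes were below and the median was 0.23. The smaller counts under these filters come in part from fewer genes. Hprt alone, a Ct limit of 32, no Ct limit and a lower amplification per cycle moved no count by over 1.5 times.

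Of the 20 genes above, 18 kept their sign under every setting that gave a value, and Acacb, Sirt3, Srebf1 and Taz also kept their side of the limit. Bmp7 (-0.025) and Nr0b2 (-0.045) turned with Hsp90ab1 alone. Of the 29 below, 24 kept their sign and 18 their side, while Dkk1 (0.20), Dlk1 (0.12), Gata3 (0.57), Retn (6.48) and Vdr (1.81) turned when the DNA template was subtracted. Retn was 0.002 cycles before the MGDC in LFDPool, so little of its template was left there after subtraction. The cause of these turns was not tested. No error can be given for any value, as each is 1 well of 1 sample.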
